A study of Mus musculus with 22 samples.

Results

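Immediate neuronal precursors (INPs) were examined in single-cell RNA-seq (scRNA-seq) data from the mouse olfactory epithelium (OE), the sheet of tissue in the nose that detects odorants. An INP was a cell with at least 2 unique molecular identifiers (UMIs, each standing for 1 captured mRNA molecule) of the proneural genes Neurog1 and Neurod1 in sum. It also had fewer than 2 UMIs of the proliferation genes Mki67, Top2a, Cdk1 and Ccnb1 in sum. Of 32293 cell barcodes, 25185 exceeded 500 genes and 1500 UMIs with a mitochondrial share under 20%, and 396 of these 25185 cells were INPs. The cells were chosen by the UMIs of these 6 genes, so the levels of those genes are a description only.

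The study asked what the nonsense-mediated RNA decay (NMD) factor UPF3B does in olfactory sensory neurons (OSNs). Whole OE came from 4 wild-type mice (Upf3b+/y, WT) and 4 Upf3b-null mice (Upf3b-/y), all C57BL/6J males of 7 to 8 weeks, with 1 droplet library (10x Genomics 3' chemistry) per mouse and dead cells removed. The null allele was constitutive, so every cell type of a null mouse carried it. Mature OSNs sorted from other mice were also profiled in bulk by the study and are not used here. Cells of 1 mouse are not replicates, so every comparison of genotypes was made between mice (n = 4 against 4).

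OSNs are replaced throughout life from basal stem cells. Globose basal cells that divide come to express the proneural factors Neurog1 and Neurod1. Their postmitotic daughters, the INPs, leave the cell cycle and begin to extend an axon, next become immature OSNs (iOSNs) that express Gap43 and Gng8, and finally mature OSNs (mOSNs) that express Omp, the olfactory marker protein, and 1 odorant receptor (Olfr) gene per cell. NMD is an RNA turnover pathway that degrades transcripts with certain features, among them an exon junction downstream of the stop codon, and UPF3B is one of its adaptor proteins.

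WT replicates 1 to 4 gave 24, 11, 17 and 59 INPs, and null replicates 1 to 4 gave 175, 20, 14 and 76. In the same order, the INPs held 98655, 49732, 38760 and 295441 UMIs in WT and 797781, 87030, 75155 and 407284 UMIs in null mice. One gene UMI therefore equalled 25.8 CPM (a gene's UMIs scaled to 1000000 UMIs of the INPs of a mouse) in WT replicate 3 and 1.25 CPM in null replicate 1, and the level that a count of 0 allows (3 UMIs per library) ran from 3.76 to 77.4 CPM. Null replicate 1 alone held 175 of the 396 INPs, which is why levels below are means over mice and not over cells.

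WT replicate 3 stood apart from the other libraries before any comparison. The median mitochondrial share of its INPs was 16.7%, against 4.20 to 6.88% in the other 7 mice, and their median depth was 1895 UMIs, against 3577 to 5029. None of its 17 INPs had more than 2 UMIs of Neurog1 and Neurod1, all 17 carried markers of another lineage (at least 3 UMIs of a non-neuronal marker list, or over 5% of UMIs in neutrophil or erythroid genes), and Gng8 was found in 3 of the 17. Results that rest on it are given with and without it. Over all mice, 147 of the 396 INPs carried such markers of another lineage: 1, 2, 17 and 49 in WT replicates 1 to 4, and 37, 0, 10 and 31 in null replicates 1 to 4. Whether these markers came from doublets or from RNA freed by broken cells was not tested. Any pair of libraries shared between 2 and 70 barcode sequences, no INP barcode was an INP in 2 libraries, and 15 INP barcodes were also those of a kept cell in another library.

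Other classes of the same libraries serve for comparison. Cycling Neurog1/Neurod1 cells (192 cells) met the proneural part of the rule but had 2 or more UMIs of the proliferation genes. They numbered 6, 5, 1 and 35 in WT replicates 1 to 4 and 100, 5, 5 and 35 in null replicates 1 to 4, so each mouse's cycling level rests on 1 to 6 cells in 5 of the 8 mice, and on a single cell of 40281 UMIs in WT replicate 3. iOSN-like cells (1370) had no Neurog1 or Neurod1 UMI, at least 5 UMIs of Gap43 and Gng8 and fewer than 10 of Omp, and WT replicate 3 held only 5 of them. mOSN-like cells (5501) had at least 10 Omp UMIs and fewer than 5 of Gap43 and Gng8, and sustentacular-like cells (2426), the glia-like support cells of the OE, had at least 5 UMIs of Cyp2g1, Cyp1a2, Sec14l3 and Ermn. Neutrophil-like cells (2607) had over 10% of their UMIs in neutrophil genes. INPs, cycling, iOSN-like and mOSN-like cells together made up 7459 OSN lineage cells. Median depth was 3798.5 UMIs in INPs, 6982 in cycling, 3190 in iOSN-like and 2980 in mOSN-like cells. At an equal depth of 1500 UMIs the median INP held 880 genes, against 892, 938 and 908 in those 3 classes.

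Of the markers checked that the rule did not use, Gng8 was the most frequent, and it fitted the name INP in 7 of the 8 libraries. Omp, a marker of mature OSNs, came next (51.5% of INPs). Neurod1, which the rule itself used, was found in 387 of the 396 INPs (97.7%), with a median of 3 UMIs and a highest value of 20, and Neurog1 in 148 (37.4%). Of the markers the rule did not use, Gng8, the G protein gamma subunit of immature OSNs, had a UMI in 337 INPs (85.1%). Gap43, the growth cone protein of extending axons, had one in 104 (26.3%). This was close to the 25.5% of the 710 cells just outside the proneural threshold, so the share did not separate INPs from those cells. Mean Gap43 was 112 CPM in INPs, against 35.1 CPM in cycling, 46.7 in sustentacular-like and 25.6 in neutrophil-like cells. It was 2143 CPM in iOSN-like and 67.8 CPM in mOSN-like cells, which Gap43 UMIs helped to choose. The Gng8 share was 83.3, 90.9, 17.6 and 74.6% in WT replicates 1 to 4 and 94.9, 100, 100 and 78.9% in null replicates 1 to 4, so only WT replicate 3 was far below the rest. Omp had a UMI in 204 INPs (51.5%), with a mean per cell of 0.125, 0.0909, 6.41 and 3.20 UMIs in WT and 1.59, 0.25, 3.43 and 2.62 UMIs in null mice. Omp was thus near 0 in WT replicates 1 and 2 and null replicate 2, and in these 3 libraries an Olfr UMI was also rare in neutrophil-like cells (1.11 to 2.42% of cells thinned to 1500 UMIs).

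Just inside the proneural threshold, 126 INPs had exactly 2 UMIs of Neurog1 and Neurod1, and Gng8 was found in 77% of them (86.2% of 109 without WT replicate 3). Just outside, 710 cells had 1 such UMI, and Gng8 was found in 37.3% (41.0% of 512 without WT replicate 3). The Gap43 share did not follow the threshold, at 25.4% inside and 25.5% outside (24.8% in both without WT replicate 3). At the other threshold, 63 INPs had 1 proliferation UMI and 13 cells left out had 2, with Gng8 in 71.4% and 84.6%. Cells that should lack proneural genes seldom met the rule: 1 of 2690 cells rich in neutrophil genes (0.0372%), 2 of 818 cells with horizontal basal cell keratins (0.244%) and 23 of 2727 cells with sustentacular markers (0.843%) did so. Pooled over mice, the sustentacular share is the highest of these backgrounds. It was not low in every library: it was 1.15% in WT replicate 3 and 0.893% in WT replicate 2, above the share of INPs among all kept cells of those mice (0.609 and 0.762%). In WT replicate 2 the horizontal basal cell share was higher still, at 2.33% (1 of 43 cells).

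Genes were ranked by the ratio of mean CPM in INPs to the highest mean among other classes, with 20 CPM added to both. The classes compared were iOSN-like, mOSN-like, sustentacular-like, neutrophil-like and horizontal basal cell-like cells, with the cycling class left out. The 11959 kept cells that fell in none of the classes were not compared either. This ranking is a description with no test, since RNA levels chose the cells. Behind Neurod1, the leading gene was Ppp1r14a, an inhibitor of myosin phosphatase, at 417 ± 247 CPM (SD, n = 8 mice) in INPs against 21.2 CPM in iOSN-like and 76.2 CPM in cycling cells. Its INP level ran from 25.8 CPM in WT replicate 3, which is a single UMI, through a median of 478 to 800.8 CPM. Among the classes compared it was highest in INPs in 8 of 8 mice.

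A pair of centriole duplication genes were among the 15 leading genes. Plk4, the kinase that starts centriole assembly, averaged 687 ± 329 CPM in INPs (lowest 129, median 629, highest 1106), 449 ± 218 CPM in cycling cells and 63.2 ± 34.0 CPM in iOSN-like cells. Stil, its partner in that step, averaged 131 ± 75.6 CPM in INPs, 128 ± 88.0 CPM in cycling cells and 9.87 ± 8.08 CPM in iOSN-like cells. Plk4 averaged 767 CPM in INPs and 514 CPM in cycling cells without WT replicate 3, and Stil 146 and 147 CPM. Mean Plk4 was thus higher and mean Stil about equal in INPs, which carried at most 1 proliferation UMI, whereas Pcna, the replication clamp, averaged 29.9 ± 24.9 CPM in INPs and 208 ± 141 CPM in cycling cells. The other leading genes included Mfng (233 ± 139 CPM, a glycosyltransferase that modifies Notch), Grp (465 ± 264 CPM, gastrin-releasing peptide), Baz1a (871 ± 509 CPM, a chromatin remodelling subunit), Elavl4 (1673 ± 691 CPM, a neuronal RNA-binding protein) and Scg2 (404 ± 229 CPM, a secretory granule protein). Gm10631, Grasp, Tmem2, Mss51 and Dand5 completed the 15 together with Neurog1. Among the classes compared, cycling cells aside, all 15 were highest in INPs in 7 or 8 of the 8 mice. Without WT replicate 3 their log2 ratios lay between 2.27 (Dand5) and 5.16 (Neurod1).

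**Figure D1:**
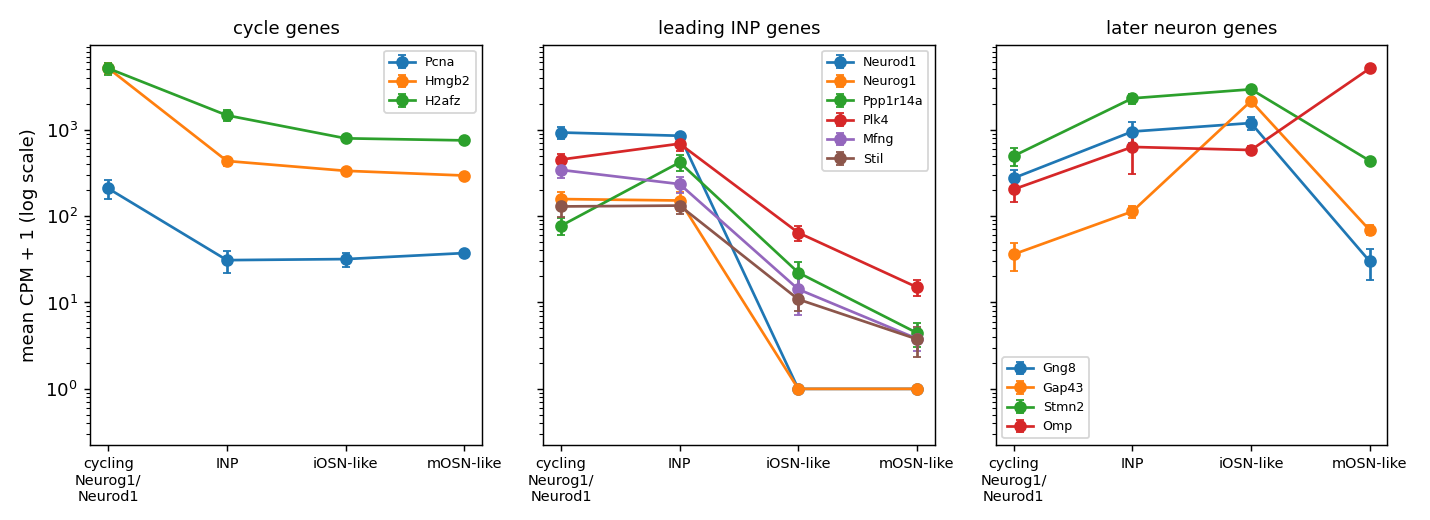
Mean level of named genes in 4 stages of the OSN lineage, in CPM + 1 on a log axis. Points are means over 8 mice and bars the standard error; Neurod1 and Neurog1 sit at 0 CPM in iOSN-like and mOSN-like cells because the class rules require it. Plk4 is at 687 CPM in INPs and 449 CPM in cycling cells, Stil is at 131 and 128 CPM, while Hmgb2 is at 5137 CPM in cycling cells and 433 CPM in INPs.

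Across the 4 lineage stages, 4640 genes reached 50 CPM in at least 1 stage, and 860 of them (18.5%) had their highest mean in INPs, against 24.2% in cycling, 27.2% in iOSN-like and 30.1% in mOSN-like cells. The shares without WT replicate 3 were 17.3% of 4691 genes in INPs and 29.4, 22.6 and 30.8% in the other classes. Among 34 transcription factors of neuronal differentiation, Neurog1 and Neurod1 left out because their UMIs chose the cells, 12 were highest in INPs, 12 in cycling, 9 in iOSN-like and 1 in mOSN-like cells (13, 12, 8 and 1 without WT replicate 3, where Ebf3 moved to INPs). Lhx2, a LIM homeodomain factor needed for OSN identity and for odorant receptor choice, stood at 1397 ± 631 CPM in cycling cells, 2444 ± 874 in INPs, 736 ± 190 in iOSN-like and 389 ± 200 in mOSN-like cells. It was higher in INPs than in both neighbouring stages in 8 of 8 mice. Sox11, a pan-neuronal factor of young neurons, followed the same order (2487, 3127, 1280.2 and 76.0 CPM). Its INP level exceeded the iOSN-like level in 8 of 8 mice but the cycling level in only 5 of 8. Over the 7 other mice, Lhx2 averaged 1597, 2709, 774 and 387 CPM and Sox11 2835, 3452, 1351 and 53.4 CPM in these 4 stages, in the same order. The highest stage of Nhlh1, Nhlh2, Tubb3, Gadd45g, Sema3a, Cxcr4 and Gnas, described next, was also INPs without WT replicate 3.

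The related helix-loop-helix factors Nhlh1 and Nhlh2 also had their highest mean in INPs. Nhlh1 averaged 230.1 ± 79.3 CPM in INPs against 72.5 ± 50.3 in cycling and 172 ± 46.5 in iOSN-like cells, and Nhlh2 761 ± 307 CPM against 416 ± 243 and 178 ± 46.7. Each exceeded the iOSN-like level in 7 of 8 mice and the cycling level in 8 of 8. Ebf1, a factor that binds Olfr promoters, was intermediate in INPs (1068 ± 294 CPM), above cycling cells (718 ± 346) and below iOSN-like cells (2214 ± 476). Insm1, a zinc finger factor of neuronal progenitors, was instead lowest at the INP stage among the first 3 stages, at 172 ± 65.0 CPM against 775 ± 515 in cycling and 399 ± 145 in iOSN-like cells.

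Notch signalling keeps progenitors undifferentiated through lateral inhibition. Of 7 Notch ligands, receptors and effectors at 50 CPM or more, 5 were highest in cycling cells, 2 in mOSN-like cells and none in INPs (7, 1 and none of 8 without WT replicate 3). Hes6, an antagonist of the Notch effector Hes1, was at 1186 ± 615 CPM in cycling cells, 593 ± 361 in INPs and 226 ± 113 in iOSN-like cells. Notch1 itself was at 109 ± 123, 39.9 ± 23.7 and 5.40 ± 4.71 CPM in those stages. Among 13 genes of cell cycle exit, 3 were highest in INPs, one of them Gadd45g, a stress sensor that slows the cell cycle (251 ± 198 CPM against 200 ± 159 in cycling and 43.8 ± 26.2 in iOSN-like cells). Gadd45a stood at 480.5 CPM in INPs, 633 in cycling and 35.4 in iOSN-like cells. Cdkn1a, the CDK inhibitor p21, was instead at 41.4 CPM in INPs and 168 CPM in iOSN-like cells. All 31 further S phase and mitosis genes at this level were highest in cycling cells, which the rule itself favours, since proliferation genes separated both classes.

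**Figure D2:**
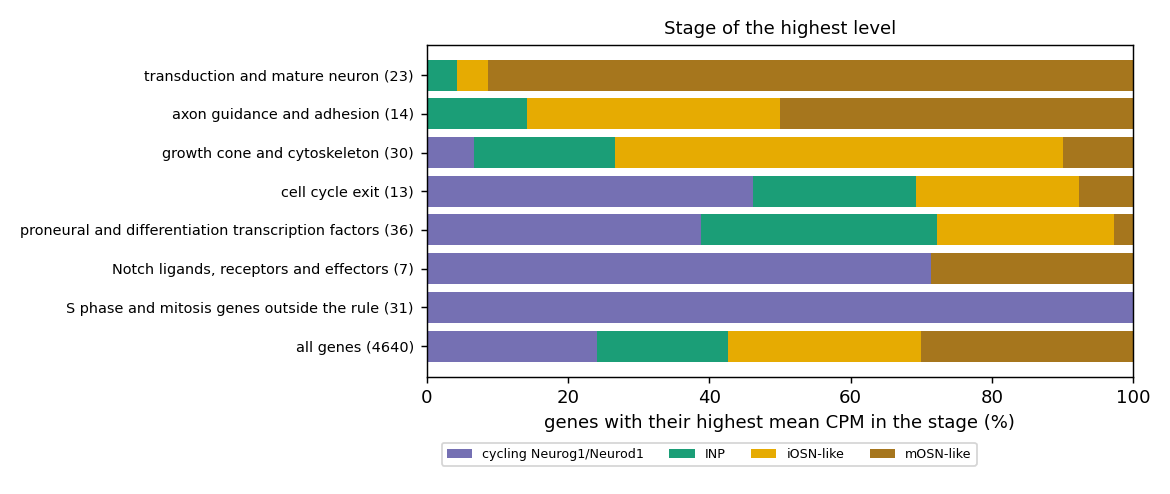
Share of the genes of each list (number at 50 CPM or more in parentheses) whose highest mean CPM over 8 mice falls in cycling, INP, iOSN-like or mOSN-like cells. The lists here include the genes whose UMIs chose the classes (Neurog1 and Neurod1 among the transcription factors, Gap43 and Gng8 among the growth cone genes, Omp among the transduction genes). INPs hold the highest level of 12 of 36 transcription factors and of 860 of all 4640 genes.

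Genes of axon growth were already abundant in INPs, though most were highest one stage later. Of 28 growth cone and cytoskeleton genes other than Gap43 and Gng8, 6 were highest in INPs and 17 in iOSN-like cells. Stmn2, a microtubule regulator of growing axons, was at 495 ± 324 CPM in cycling cells, 2305 ± 880 in INPs and 2928 ± 702 in iOSN-like cells, and Tubb3, the neuronal tubulin, peaked in INPs (1512, 2155 and 1445 CPM). Gap43 was far lower in INPs (112 ± 53.4 CPM) than in iOSN-like cells (2143 ± 539 CPM). That distance is partly built in, as Gap43 and Gng8 define the iOSN-like class. Gng8 was at 950.1 ± 732 CPM in INPs, against 274 ± 195 CPM in cycling cells.

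Of 14 axon guidance and adhesion genes, 2 were highest in INPs. They were Sema3a, a repulsive guidance ligand (115 ± 64.5 CPM against 28.7 ± 29.4 in cycling and 25.1 ± 14.8 in iOSN-like cells), and Cxcr4, a chemokine receptor of migrating neurons (93.8 ± 35.2 CPM against 60.6 and 29.2 CPM). Sema3a exceeded the iOSN-like level in 8 of 8 mice. Nrp2, a semaphorin receptor, was at 168 CPM in INPs and 279 CPM in iOSN-like cells, and Ncam1 at 403 and 1129 CPM. Of 22 transduction and mature neuron genes other than Omp, 20 were highest in mOSN-like cells. The exception in INPs was Gnas, which encodes the stimulatory G protein that precedes the olfactory form in immature cells, at 1008 ± 276 CPM in INPs, 310 ± 57.9 in iOSN-like and 78.3 ± 76.6 in mOSN-like cells.

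Olfr genes are the receptors of which a mature OSN keeps 1. With every cell thinned to 1500 UMIs, an Olfr UMI was found in 0, 0, 64.7 and 22.0% of the INPs of WT replicates 1 to 4 and in 9.14, 0, 0 and 14.5% of those of null replicates 1 to 4. The counts of 0 allow shares of up to 12.5% and 27.3% in WT replicates 1 and 2, and of up to 15% and 21.4% in null replicates 2 and 3, from counting error alone. Neutrophil-like cells, which make no odorant receptor, gave 2.27, 2.42, 46.7 and 22.4% in WT and 6.48, 1.11, 11.9 and 15% in null mice. In both cell types WT replicate 3 was highest and WT replicate 4 next, and the means were 13.8 ± 22.2% in INPs, 13.5 ± 15.3% in neutrophil-like and 11.6 ± 11.9% in sustentacular-like cells. The INP share was below the neutrophil-like share in all mice but WT replicate 3 and null replicate 1, so it is not read as expression, and low Olfr expression in INPs was not detectable above this background. iOSN-like cells (42.3 ± 10.4%) and mOSN-like cells (56.2 ± 5.46%) stood above the neutrophil-like share of their own library in 8 of 8 mice.

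Without thinning, 105 of the 396 INPs (26.5%) held 191 Olfr UMIs in all, spread over 115 of 1126 Olfr genes, at a median depth of 3798.5 UMIs. Only 6 INPs held 5 or more Olfr UMIs, and the highest value was 10. The study listed 78 Olfr genes as lower in null mOSNs. Of these, 73 were in the matrices, 12 had a UMI in INPs, and together they held 23 of the 191 Olfr UMIs. By mouse this was 0 of 1, 0 of 1, 4 of 27 and 11 of 41 Olfr UMIs in WT and 8 of 64, 0 of 1, 0 of 4 and 0 of 52 in null INPs, so 3 libraries held all 23. As above, Olfr UMIs in INPs are not read as expression. Rtp1, a chaperone of odorant receptors, was at 60.8 ± 39.1 CPM in INPs against 238 ± 48.6 CPM in iOSN-like cells. Ddit3, a gene of the unfolded protein response, was at 28.9 ± 24.3 and 244 ± 111 CPM in the same classes, and Atf5, a factor that the same response induces when a receptor is expressed, at 831 ± 430 and 2112 ± 552 CPM. Each of these 3 genes was lower in INPs than in iOSN-like cells in 8 of 8 mice.

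**Figure D3:**
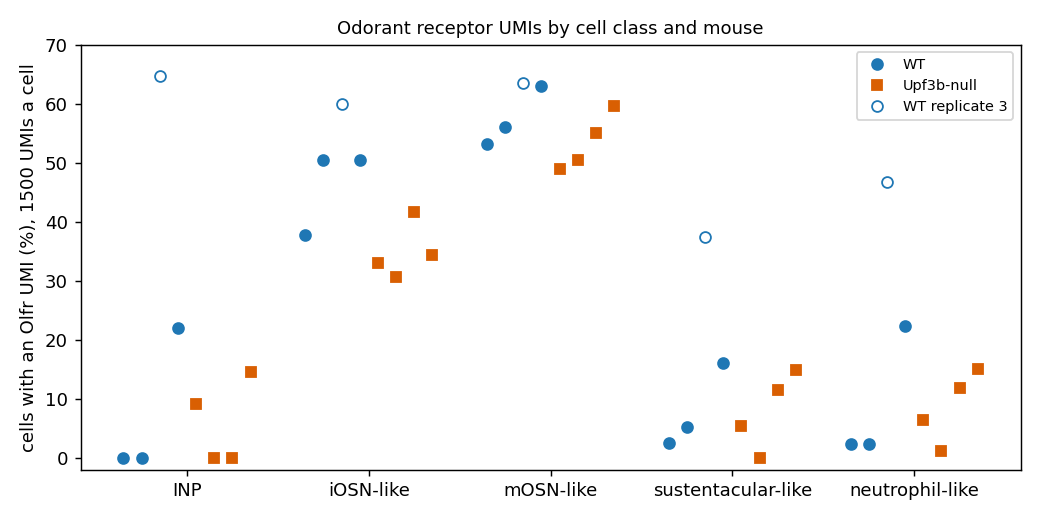
Share of cells with at least 1 Olfr UMI after thinning to 1500 UMIs per cell, by class, 1 point per mouse (circles WT, squares Upf3b-null, open circle WT replicate 3). INPs lie at the level of neutrophil-like and sustentacular-like cells of the same libraries, between 0 and 64.7%, and iOSN-like and mOSN-like cells lie above them in all mice but WT replicate 3.

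NMD genes did not share one pattern over the stages. Of 15 NMD and exon junction genes at 50 CPM or more in some stage, 2 were highest in INPs, 7 in cycling, 5 in iOSN-like and 1 in mOSN-like cells. With WT replicate 3 left out, 14 such genes remained above that level, and 1 (Ncbp3), 8, 2 and 3 of them were highest in those classes. The 2 over all mice were the cap-binding genes Ncbp3 (121 CPM in INPs, 70.4 in cycling and 60.6 in iOSN-like cells) and Ncbp1 (63.1, 58.4 and 29.5 CPM). Magoh, a core exon junction protein, was at 148 CPM in INPs, 234 in cycling and 108 in iOSN-like cells. Upf3a, the paralog of Upf3b, was at 44.5 ± 23.1 CPM in INPs, 50.0 ± 27.2 in cycling, 44.5 ± 7.70 in iOSN-like and 49.3 ± 13.4 in mOSN-like cells, differences below the spread between mice. Among 12 NMD-sensitive stress genes of the ATF4 pathway, 2 were highest in INPs and 8 in iOSN-like cells. Among 15 SR splicing factors and Luc7-like genes, which often carry NMD-sensitive exons, 4 were highest in INPs and 10 in cycling cells.

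INPs differed among themselves in their proneural genes. Neurod1 without Neurog1 was seen in 248 INPs, both genes in 139 and Neurog1 without Neurod1 in 9, and 3 mice had no INP of the last kind. INPs with Neurod1 only were therefore compared with INPs that held a Neurog1 UMI, as 2 sums per mouse with the mouse as a block. That split used UMIs of the rule itself, so its gene values are a description and no conclusion is drawn from the tests. Of 617 genes tested, none passed an adjusted p of 0.05 by edgeR (0%), 36 had an unadjusted p under 0.05 (5.83%), and DESeq2 called 1. The smallest p was that of Hmgn2, a nucleosome-binding protein, at 428 ± 248 CPM in Neurod1-only and 835 ± 320 CPM in Neurog1-holding INPs (log2 fold change -0.87, SE 0.19, adjusted p = 0.210 by edgeR). It was lower in Neurod1-only INPs in 8 of 8 mice. DESeq2 gave Hmgn2 an adjusted p of 0.0329.

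Wbp5 was at 261 ± 116 CPM in Neurod1-only and 494 ± 193 CPM in Neurog1-holding INPs, and lower in the former in 8 of 8 mice. Tesc, a calcium-binding protein, was at 285 ± 112 against 171 ± 128 CPM, and higher in Neurod1-only INPs in 8 of 8 mice. Stmn2 was higher there in 7 of 8 mice (2686 ± 1082 against 1840.4 ± 1035 CPM). The adjusted p was 0.410 for each of these 3 genes by edgeR. Gng8, for which 852 ± 636 and 985 ± 850 CPM were measured, had a log2 fold change of -0.01 (SE 0.17). The split itself moved with depth: with INPs thinned to 1500 UMIs, the Neurod1-only share was 83.0 ± 18.2% in WT and 79.5 ± 3.72% in null mice, against 63.2 ± 25.1% and 54.9 ± 12.9% before. The part of depth in these gene values was not tested.

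The abundance of INPs was compared between genotypes first among all kept cells. INPs made up 1.31, 0.762, 0.609 and 1.92% of the cells of WT replicates 1 to 4 and 2.45, 1.5, 0.819 and 1.30% of those of null replicates 1 to 4. The groups overlapped, with means of 1.15 ± 0.593% in WT and 1.52 ± 0.682% in null mice (difference 0.367 points, p = 0.429, adjusted p = 0.724, two-sided exact permutation test, n = 4 against 4). The smallest p this design can give is 0.0286. Without WT replicate 3 the difference was 0.187 points (exact p = 0.686).

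Because the share of all cells moves with the amount of immune and other tissue in a dissection, INPs were also set against the OSN lineage. They made up 3.10, 1.85, 5.94 and 7.11% of lineage cells in WT and 7.27, 2.80, 2.24 and 6.21% in null mice. Both genotypes spanned nearly the same range, with means of 4.50 ± 2.44% and 4.63 ± 2.49% (difference 0.130 points, p = 0.857, adjusted p = 0.857, two-sided exact permutation test). Without WT replicate 3, whose lineage held only 286 cells, the difference was 0.612 points (exact p = 0.771). The difference in share was in both cases smaller than the spread between mice.

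**Figure D4:**
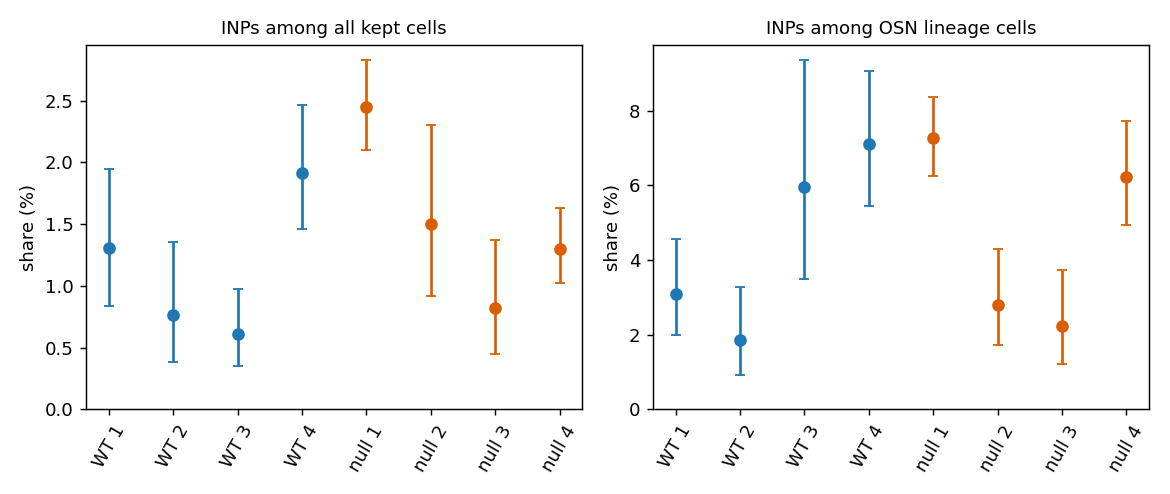
INPs as a share of all kept cells (left) and of OSN lineage cells (right) in each mouse, in percent, with exact 95% binomial intervals (Clopper-Pearson) that cover counting error only. WT shares run from 0.609 to 1.92% and null shares from 0.819 to 2.45% of all cells, so the genotypes overlap.

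The share of INPs with Neurod1 but no Neurog1 UMI was 29.2, 81.8, 82.4 and 59.3% in WT and 70.3, 40.0, 50.0 and 59.2% in null mice. The means were 63.2 ± 25.1% and 54.9 ± 12.9% (difference -8.29 points, p = 0.514, adjusted p = 0.724, two-sided exact permutation test), and the groups overlapped. The rule chose the cells by these UMIs, so this test cannot decide whether the genotypes differ, and the share is a description only. Without WT replicate 3 the difference was -1.89 points (exact p = 0.886). The share of INPs with an Olfr UMI differed by -15.8 points between null (5.90 ± 7.16%) and WT mice (21.7 ± 30.5%), with p = 0.543 and an adjusted p of 0.724 by the exact permutation test. Without WT replicate 3 that difference was -1.44 points (exact p = 1.00).

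Upf3b itself matched the genotype labels in INPs. It had 4, 3, 3 and 21 UMIs in WT replicates 1 to 4, or 40.5, 60.3, 77.4 and 71.1 CPM, and 1, 0, 0 and 1 UMIs in null replicates 1 to 4, or 1.25, 0, 0 and 2.46 CPM. The groups did not overlap (62.3 ± 16.1 CPM in WT and 0.927 ± 1.18 CPM in null INPs), although in 2 null mice the level that a count of 0 allows was 34.5 and 39.9 CPM. With 33 UMIs in all, Upf3b was too sparse for the fit across genes, which left out genes of low counts.

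Of 1464 genes tested in INPs, none differed between null and WT mice at an adjusted p of 0.05 (0%, edgeR quasi-likelihood test on UMIs summed per mouse, n = 4 against 4). DESeq2 also called none. At an unadjusted p under 0.05 edgeR gave 17 genes (1.16%), 13 higher (0.888%) and 4 lower (0.273%) in null INPs, and DESeq2 gave 28. All 4 null values lay above all 4 WT values for 10 genes (0.683%) and below them for 8 (0.546%). The 5 genes of smallest p in each direction are described next. All 10 had an adjusted p of 0.997 by edgeR, so none of them is called changed.

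Gng8 had the smallest p of all. It was at 658.9, 643.4, 103 and 419.7 CPM in WT replicates 1 to 4 and at 1399, 1735, 2182 and 459 CPM in null replicates 1 to 4. Null replicates 1 to 3 were above every WT mouse and null replicate 4 was within the WT range (456 ± 260 against 1444 ± 731 CPM, log2 fold change 1.63, SE 0.46, unadjusted p = 0.00473, adjusted p = 0.997). iOSN-like cells of the same mice held 1118, 1210, 419 and 626 CPM in WT and 1858, 1873, 1644 and 786 CPM in null mice, but Gng8 UMIs chose those cells, so these levels are a description only. Cycling Neurog1/Neurod1 cells, which Gng8 did not choose, held 178, 214, 24.8 and 158 CPM in WT and 469, 354, 624 and 171 CPM in null mice. There too null replicates 1 to 3 were above every WT mouse and null replicate 4 was within the WT range, but 5 of the 8 values rest on 1 to 6 cells, and this difference was not tested. In neutrophil-like cells, which measure Gng8 RNA outside neurons, the values were at most 81.6 CPM, and that highest value was in WT replicate 3.

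Socs2, an inhibitor of cytokine and growth hormone signalling, was at 172, 80.4, 103 and 74.5 CPM in WT and 175, 253, 346 and 282 CPM in null INPs. The groups did not overlap, but WT replicate 1 and null replicate 1 were nearly equal (log2 fold change 1.29, SE 0.40, unadjusted p = 0.00712, adjusted p = 0.997 by edgeR). The other 3 genes higher in null INPs were ribosomal protein copies, Rps27rt (log2 fold change 1.26, SE 0.38), Gm8730 (1.74, SE 0.57) and Rpl23a-ps3 (1.11, SE 0.39), whose reads cannot be told from those of their parent genes with certainty. They differed between mice outside INPs too, and library and genotype cannot be told apart, as each mouse has its own library. In neutrophil-like cells Rps27rt was at 31.8, 64.7, 102 and 52.7 CPM in WT and 215, 136, 99.0 and 80.6 CPM in null mice. Rpl23a-ps3 was there at 31.8, 55.1, 20.4 and 57.4 CPM in WT and 217, 111, 100 and 49.2 CPM in null mice. Gm8730 was at 956 CPM in INPs of null replicate 1 against 101 to 260.3 CPM in the other 7 mice. In neutrophil-like cells of null replicate 1 it was at 576 CPM, against 26.4 to 119 CPM in the other 7 mice.

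Aldh2, a mitochondrial aldehyde dehydrogenase, was at 253, 342, 206 and 156 CPM in WT and 107, 46.0, 66.5 and 147 CPM in null INPs, with no overlap (log2 fold change -1.17, SE 0.42, unadjusted p = 0.0155, adjusted p = 0.997 by edgeR). It averaged 1178 CPM in sustentacular-like cells, and the summed sustentacular markers in INPs moved with it, at 2656, 6334, 4231 and 2308 CPM in WT and 2187, 68.9, 625 and 1748 CPM in null INPs. The part of sustentacular RNA in the Aldh2 values was not tested. Sox4, an early neuronal factor related to Sox11, was at 304, 342, 206 and 267 CPM in WT and 112, 195, 93.1 and 236 CPM in null INPs (log2 fold change -0.78, SE 0.37, unadjusted p = 0.0586). Pgrmc1 (-1.10, SE 0.46), Gm10116 (-0.84, SE 0.36) and Ssx2ip (-0.63, SE 0.29) were the others, and in all 4 of these genes the groups overlapped. Pgrmc1 averaged 1604 CPM in sustentacular-like and 252 CPM in INPs, and the part of sustentacular RNA in its values was not tested either.

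**Figure D5:**
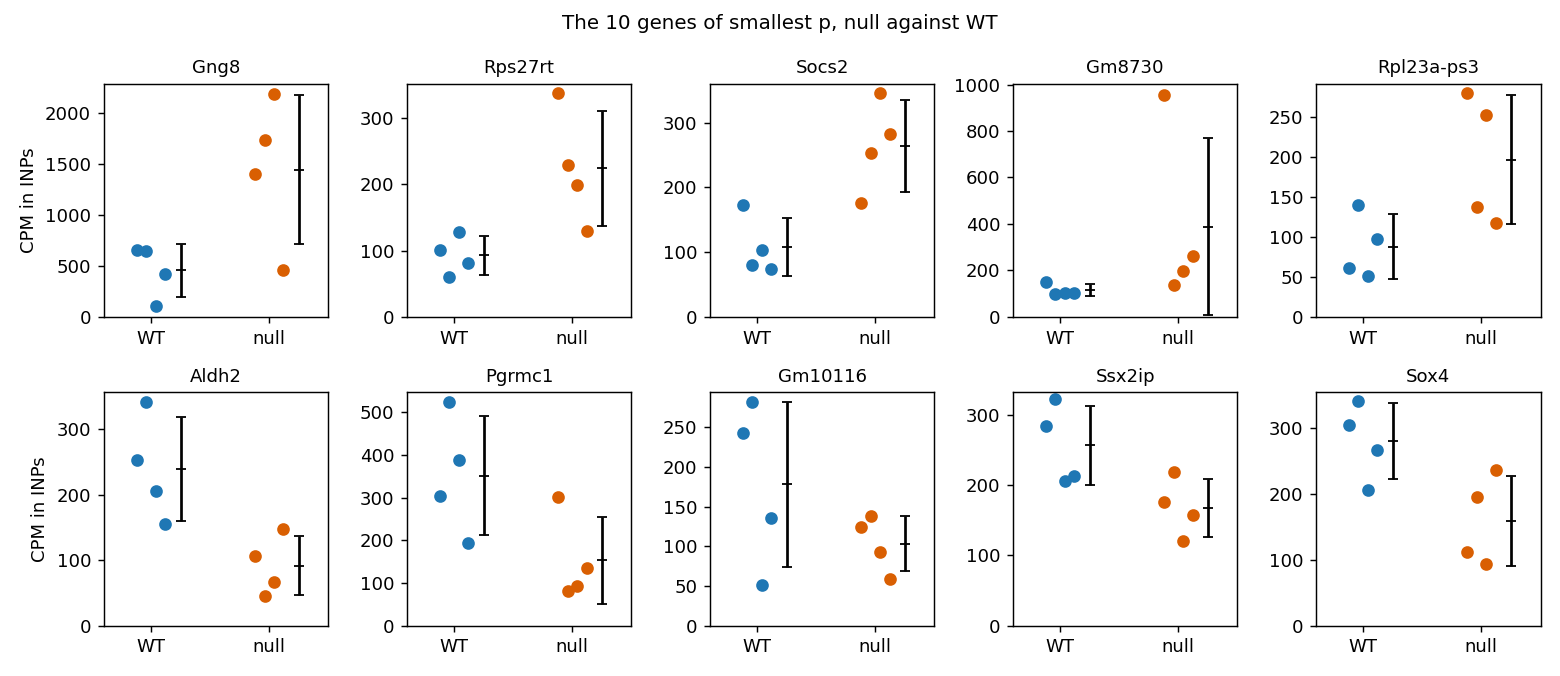
CPM in INPs of the 5 genes of smallest p higher (top) and lower (bottom) in null mice, 1 point per mouse in replicate order from left to right, bar mean ± SD over 4 mice, linear axes from 0. For Rps27rt, Socs2 and Aldh2 the genotypes do not overlap, and for Gng8 null replicate 4 (459 CPM) lies among the WT mice.

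No member of any gene list was called, so lists are described by the signs and the median of their log2 fold changes, beside a median of -0.01 over all 1464 genes (720 positive, 744 negative). The 22 differentiation factors tested split evenly, 11 positive and 11 negative, with a median of 0.01 (9 and 14 of 23, median -0.10, without WT replicate 3). Sox11 was at 3730.2, 3076, 851 and 4644 CPM in WT and 2393, 3585, 2142 and 4591 CPM in null INPs, which overlapped widely (log2 fold change 0.09, SE 0.42). Lhx2 (0.15, SE 0.36) was similar in this. Ebf1 (0.39, SE 0.31) overlapped only through WT replicate 4 (1171 CPM). WT replicates 1 to 3 (679, 845 and 877 CPM) lay below the lowest null value (974 CPM). Without WT replicate 3 the WT mean was 3817 CPM for Sox11 and 2924 CPM for Lhx2, above the null means of 3178 and 2548 CPM. That of Ebf1 stayed below the null mean (898 against 1242 CPM). Of 23 growth cone genes tested, 20 were positive with a median of 0.11, but without WT replicate 3 only 10 were positive and the median was -0.05.

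NMD and exon junction genes (5 tested, 2 positive and 3 negative, median -0.06) and the SR and Luc7-like genes (15 tested, 8 positive and 7 negative, median 0.04) split nearly evenly. The medians without WT replicate 3 were -0.03 and -0.04. Rbm8a, a core exon junction protein, was at 304, 322, 232 and 261 CPM in WT and 281, 310.2, 346 and 189 CPM in null INPs. Of the 52 mRNAs that the study named as NMD targets in mOSNs, 4 were abundant enough to test in INPs, 3 were positive, and the median was 0.41 (0.28 without WT replicate 3). Luc7l, one of the 4, had a log2 fold change of 0.50 (SE 0.45), Btg2 0.33 (SE 0.31) and Aox2 -1.25 (SE 0.64). For Btg2 the unadjusted p was 0.771 by edgeR, larger than that SE implies. Snhg6, a noncoding snoRNA host gene of the kind that NMD degrades, was at 30.4, 181, 0 and 94.8 CPM in WT and 148, 253, 240 and 167 CPM in null INPs (log2 fold change 1.28, SE 0.51, unadjusted p = 0.0293, adjusted p = 0.997 by edgeR). The groups overlapped through WT replicate 2. None of the 78 Olfr genes was abundant enough to test.

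Other lists held few tested genes. The medians were 0.09 for 6 odorant receptor choice regulators (4 positive), 0.12 for 4 cell cycle exit genes (2 positive), 0.31 for the chromatin genes H2afz and Hmgb2 of the S phase list and -0.07 for the Notch genes Hes6 and Mfng. With WT replicate 3 left out these medians were 0.07 for 8 choice regulators, 0.04 for 5 exit genes, 0.32 for the chromatin genes and -0.28 for the Notch genes, both then negative. The axon guidance genes Ncam1 and Nrp2 had a median of -0.21, which was -0.10 for 4 genes without WT replicate 3, and the ATF4 targets Atf5, Gadd45a and Atf4 one of -0.52, which was -0.09 for 4 genes without WT replicate 3. Gadd45a was at 892, 1166, 25.8 and 345 CPM in WT and 538, 253, 386 and 238 CPM in null INPs, so WT replicate 3 alone was far below the other WT mice. Of the MHC class I and interferon genes, Ifitm2 (0.10, SE 0.49) and Cd24a (-0.25, SE 0.51) were tested.

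The largest medians belonged to genes of other cell types and differed by library. The 4 sustentacular genes tested were all negative, with a median of -1.74, and -1.45 without WT replicate 3. Cyp2a5 was at 578, 1548, 1238 and 694 CPM in WT and 553, 0, 133 and 356 CPM in null INPs. The 4 erythroid genes were all positive, with a median of 2.24 (3.28 without WT replicate 3), through null replicate 3, whose INPs held 87433 CPM of erythroid transcripts against 80.4 to 10526 CPM in the other 7 mice. No gene of the horizontal basal cell, B cell, stromal and microvillous lists was abundant enough to test. The 3 gland genes (median -1.40) and the macrophage gene Apoe (-1.54) were negative, and the gland median was -0.10 without WT replicate 3. The 6 neutrophil genes had a median of 0.84 (1.78 without WT replicate 3), and their sum was 203, 1106, 5624 and 3084 CPM in WT and 4785, 149, 7664 and 6764 CPM in null INPs. The 8 transduction genes tested had a median of -1.41, which became 0.08 without WT replicate 3, where that list summed to 22136 CPM against 2412 to 6492 CPM in the other mice.

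Whether a genotype effect in INPs differed from that in iOSN-like cells was tested as the interaction of stage and genotype, with the mouse as a block. Of 6002 genes tested, 1 was called (0.0167%), and 178 had an unadjusted p under 0.05 (2.97%). In iOSN-like cells alone 1 of 5342 genes was called (0.0187%). The gene with an interaction was Dcpp3, a secretory gland gene, at 0, 0, 51.6 and 23.7 CPM in WT and 178, 0, 0 and 58.9 CPM in null INPs, and at 65.4, 2.62, 52.3 and 33.1 CPM in WT and 35, 0, 0 and 15.6 CPM in null iOSN-like cells. In 4 of the 8 mice there was no Dcpp3 UMI in INPs (interaction 3.29 on the log2 scale, SE 0.64, adjusted p = 0.0299 by edgeR). The call was lost with DESeq2 (adjusted p = 1.00) and without WT replicate 1, WT replicate 4 or null replicate 1 (adjusted p = 0.418, 0.264 and 1.00 by edgeR).

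Of the next genes by p, Dlx6, a homeodomain factor, was at 0, 20.1, 0 and 3.38 CPM in WT and 28.8, 68.9, 26.6 and 58.9 CPM in null INPs. Its genotypes did not overlap in INPs, but the WT values rest on at most 1 UMI per mouse (interaction 3.54, adjusted p = 0.463 by edgeR). Scgb1c1 (-0.998), H2-Eb1 (3.02) and Lmo1 (-1.24) did not pass either, with adjusted p of 0.463, 0.602 and 0.602 by edgeR. The interaction was not read for Gng8 and Gap43, whose UMIs chose the iOSN-like cells.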

How the data were processed

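scRNA-seq of whole OE was analysed in 4 WT and 4 Upf3b-null mice. The counts the authors deposited are UMIs of 27998 genes in each barcode, made with Cell Ranger on mm10 and not normalized. Barcodes above 500 genes and 1500 UMIs with under 20% mitochondrial UMIs were kept (25185 of 32293), and INPs and comparison classes were taken by UMI thresholds on named genes. No doublet caller was run. Instead INPs with markers of other lineages were left out as an alternative. The deposited bulk counts of sorted mOSNs were not used. The members, the 24 gene lists and the tests were chosen with earlier results of these data known.

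UMIs of the INPs of each mouse were summed and tested with edgeR 4.0.16 (TMM, filterByExpr, robust quasi-likelihood F test, Benjamini-Hochberg adjustment, limit 0.05) in R 4.3.3, with DESeq2 1.42.0 as the alternative. Only the null versus WT fit of INP sums was also run on counts simulated from its own means and spread. The interaction and Neurod1-only fits were not, and nothing here rests on the simulation. CPM in the text are a gene's UMIs per 1000000 UMIs of the class in a mouse, given as mean ± SD over mice, and log2 fold changes are edgeR's, null over WT. Each SE was computed from the log2 fold change and the F statistic, and need not match the p. Shares were compared with an exact permutation test over mice in python 3.11.15, and 4 such tests were adjusted together. For Olfr shares every cell was thinned to 1500 UMIs. All intervals and limits cover counting error only.

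Genes named were Upf3b, those past the limit whose groups do not overlap or, with fewer than 5 such genes, the 5 of smallest p per direction, the 5 of smallest p of the interaction, the 3 most abundant tested members of a list (of which a part is printed), and the 15 leading genes of the class. Other genes named in the stage descriptions were chosen after their values were seen. A planned comparison of Neurod1-only with Neurog1-only INPs could not be fitted, since 3 mice had none of the latter, and INPs holding Neurog1 were used in their place, chosen after seeing the data. For the interaction, the filter on low counts was set by stage and genotype, also after seeing the data, as were the stage counts without WT replicate 3 or without the genes that chose the classes.

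The deviations of same-numbered WT and null mice across genes correlated at 0.156, 0.391, 0.0673 and 0.535. As 1 pair lay under 0.1 and the labels name no shared source, replicate numbers were not taken as pairs. The 4 replicates of a genotype are separate mice per the methods.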

Additional observations from a re-analysis of the deposited data

Results flagged for a closer look

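In 6 of 56 groups of 4 mice examined, 1 mouse lay far from the other 3 by Dixon's criterion. That criterion is met by about 1 of 20 groups of independent normal values. The groups here share libraries and some values are sparse, so the count is not read against that rate. The median mitochondrial share of INPs was 16.7% in WT replicate 3, against 4.20 to 5.74% in the other WT mice. Gm8730 was at 152 CPM in INPs of WT replicate 1, against 101 to 105 CPM in the other WT mice, and at 956 CPM in null replicate 1, against 138 to 260.3 CPM. Dlx6 was at 20.1 CPM in INPs of WT replicate 2, against 0 to 3.38 CPM, and at 0 CPM in iOSN-like cells of WT replicate 3, against 71.4 to 82.9 CPM. H2-Eb1, an MHC class II gene of antigen-presenting cells, was at 192 CPM in iOSN-like cells of WT replicate 2, against 0 to 18.4 CPM.

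Dcpp3 was the 1 gene whose genotype effect differed between INPs and iOSN-like cells by a test of the difference itself, by 3.29 on the log2 scale (SE 0.64, adjusted p = 0.0299 by edgeR). Its INP level was above 0 in 4 of 8 mice. As given above, the call was lost with DESeq2 and without WT replicate 1, WT replicate 4 or null replicate 1.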

How the results depend on the processing

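No gene passed in INPs between null and WT mice under 17 of 18 alternatives (DESeq2, other size factors, other INP thresholds, under 10% mitochondrial UMIs, other-lineage INPs left out, each replicate left out). Without the filter on low counts 2 genes of 15651 were called, Upf3b (adjusted p = 0.00788) and 5430402E10Rik (log2 fold change -3.62, adjusted p = 0.00788, edgeR). 5430402E10Rik was called in this unfiltered fit alone, and it is not read as changed. With each replicate left out in turn the count stayed at 0, and 8 to 72 genes had an unadjusted p under 0.05. Taking the replicate number as a block, a pairing that the labels do not give (2 of the 4 WT mice correlated best with the null mouse of their own number), gave 0 calls and 24 genes at an unadjusted p under 0.05. The 5 genes of smallest p in each direction kept their direction in the 174 fits that tested them. The lowest adjusted p among these edgeR and DESeq2 fits was 0.125. The genes were chosen by p in the same mice, which these fits reuse, so the kept direction is no further support. In the other 6 of 180 cases the gene was too sparse to test, among them Aldh2 and Pgrmc1 with other-lineage INPs left out and Aldh2 under 10% mitochondrial UMIs.

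The difference in share of all cells turned to -1.23 points when 1 proneural UMI sufficed. That of lineage cells turned to -8.47 points with 1 UMI and to -0.552 when the rule was applied to cells thinned to 1500 UMIs, and that of Neurod1-only INPs to 0.0234 with 3 UMIs. With 1 mouse left out these 3 differences ran from 0.0575 to 0.623, from -0.754 to 1.00 and from -19.6 to -1.89 points, and that of Olfr-positive INPs from -23.0 to -1.44. Each of these shares had an exact permutation p over 0.1, so no sign is read from them. The lineage difference was negative without WT replicate 1 (-0.337), WT replicate 2 (-0.754), null replicate 1 (-0.749) and null replicate 4 (-0.398).

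The interaction count was 0 with DESeq2, 2 with no filter, and 0 to 2 with 1 mouse left out. The Neurod1-only comparison was chosen after seeing the data and split cells by UMIs that the rule used. It gave 1 call with DESeq2, 10 with no filter, and 0 to 2 with 1 mouse left out. The causes were not tested. Depth limits all of this, since the smallest libraries held 38760 to 98655 INP UMIs and most genes could not be tested.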

Other observations

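INPs were also divided by their Gng8 UMIs, a split chosen after the data were seen and given with no test. INPs with 5 or more Gng8 UMIs made up 20.8, 27.3, 0 and 15.3% of the INPs of WT replicates 1 to 4 and 66.3, 65.0, 85.7 and 15.8% of those of null replicates 1 to 4. Null replicate 4 was again at the level of the WT mice. Over all cells, Gap43 had a UMI in 18.6% of the 59 INPs without Gng8, 23.4% of the 167 with 1 to 4 Gng8 UMIs and 31.8% of the 170 with 5 or more. Within each mouse the Gap43 share was likewise higher in each set than in the one below it, for example 11.1, 16 and 26.7% in null replicate 1, which held 116 of the 170 high-Gng8 INPs, and 12.5, 27.1 and 58.3% in null replicate 4. WT replicate 3 had no INP in the highest set, and null replicates 2 and 3 had none without Gng8. Several sets were very small, such as 1 and 3 cells in the lowest and highest sets of WT replicate 2. Median depth over the 3 sets was 2882, 3796 and 4020.5 UMIs, and its part in these shares was not tested.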
